A study of Homo sapiens with 9 samples.

Results

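Stable intergenic elements are stretches of open chromatin that lay outside every annotated gene, far from any transcript start, and were found whichever siRNA the cells had received. Of 109960 merged regions on chromosomes 1 to 22, 29350 had a peak in all 3 deposited lists and 3946 of those were members, which is 13.4% of the stable regions (95% Wilson interval, 13.1 to 13.8). Members were selected on the presence of a peak in every list, on a distance of more than 5 kb from any GENCODE transcript start, on the absence of overlap with any gene body, and on the absence of the exact 7-bp AP-1 consensus within 100 bp of any peak summit. Of the 29350 stable regions, 13441 met the distance limit and 5645 of these were also outside genes. Another 1699 regions met those limits but held AP-1, the site of the Jun and Fos family. Because presence in the 3 lists chose the members, their stability is a description and not a result.

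ATAC-seq, in which a transposase cuts accessible DNA, was performed in HepG2, an established line from a liver carcinoma. A non-targeting siRNA (NTG) or either of a pair of INO80 siRNAs (siINO80#1, siINO80#2) was transfected at 50 nM for 72 h, 3 times independently, giving 9 samples. INO80 is the ATPase of a nucleosome-remodelling complex, and the extent of its depletion cannot be read from peak lists. Each siRNA had 1 list over its 3 replicates, of 69730, 69333 and 53113 peaks for NTG, siINO80#1 and siINO80#2, so no replicate error and no test between lists could be had. Read depth was not given in these files.

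Open chromatin far from promoters is typically held by enhancers and by insulators. CTCF is the zinc-finger protein of insulators and loop anchors. FOXA proteins are pioneer factors that bind nucleosomal DNA in liver, and HNF4A, HNF1 and C/EBP proteins are the other classical hepatocyte factors. Promoters of broadly expressed genes instead carry sites for SP1, ETS, NRF1 and YY1.

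The sequences at the summits of the strongest members are shown first, because motif content was not used by the rule apart from AP-1. Each line gives up to 20 bases on either side of a motif match, which is in capitals, read 5′ to 3′ in the direction of the motif from the GRCh37 reference (hg19). The 5 strongest members with a CTCF match, by mean rank over the lists, were the following.
CTCF, chr4:33062735-33062786, minus strand: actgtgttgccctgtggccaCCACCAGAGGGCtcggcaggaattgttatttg
CTCF, chr7:113061954-113062005, minus strand: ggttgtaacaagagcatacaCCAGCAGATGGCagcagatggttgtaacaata
CTCF, chr13:77047848-77047899, minus strand: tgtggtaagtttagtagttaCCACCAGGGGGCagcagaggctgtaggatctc
CTCF, chr3:84597185-84597236, plus strand: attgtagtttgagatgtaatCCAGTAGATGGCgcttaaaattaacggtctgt
CTCF, chr6:18997721-18997772, plus strand: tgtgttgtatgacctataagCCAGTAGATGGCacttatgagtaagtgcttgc
A pair of the strongest members with a FOXA match (TGTTTAC) is next, and their flanks resembled each other.
FOXA, chr6:142553743-142553789, minus strand: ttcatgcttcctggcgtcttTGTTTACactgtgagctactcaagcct
FOXA, chr12:83028703-83028749, plus strand: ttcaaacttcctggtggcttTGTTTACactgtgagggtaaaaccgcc
The strongest FOXA members that resembled no other member are shown for contrast.
FOXA, chr3:30300448-30300494, plus strand: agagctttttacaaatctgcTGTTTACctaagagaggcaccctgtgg
FOXA, chr5:81931719-81931765, minus strand: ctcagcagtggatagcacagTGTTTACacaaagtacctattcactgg
The strongest examples for the other liver factors are given last.
HNF4A, chr7:121354777-121354825, minus strand: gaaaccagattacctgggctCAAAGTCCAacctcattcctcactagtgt
HNF4A, chr13:108806823-108806871, minus strand: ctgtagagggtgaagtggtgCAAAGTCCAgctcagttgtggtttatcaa
HNF1, chr4:105050188-105050236, minus strand: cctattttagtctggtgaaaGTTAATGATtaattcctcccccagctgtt
C/EBP, chr13:104535646-104535693, minus strand: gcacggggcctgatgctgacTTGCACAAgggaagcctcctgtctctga

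CTCF matches were more frequent in the members than in the other 3 classes of stable element compared. In the 200 bp around the strongest summit, 357 of 3946 members held the 12-letter CTCF motif, or 9.05% (8.19 to 9.98). Windows 1 kb to either side held it in 0.139%. Stable intronic elements, chosen by the same rule but inside genes and outside exons, held it in 6.47% of 4774, a difference of 2.57 percentage points (95% Newcombe interval, 1.45 to 3.72). The members were higher on 17 of 22 chromosomes and lower on 4. The share was 1.49% in 9926 stable promoters without AP-1 and 2.18% in the intergenic elements with AP-1. These intervals cover counting error only and treat regions as independent, which neighbours are not.

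Base composition moved with this difference, so it was also taken within classes of GC content. Median GC content of the windows was 48.0% in members, 46.5% in intronic elements, 65.0% in promoters and 41.0% at 1 kb from the members. The CTCF difference from intronic elements was 1.97 percentage points (0.26 to 3.77) below 45% GC, 3.2 points (0.99 to 5.48) at 45 to 50% GC and 2.24 points (0.24 to 4.23) above 50% GC. All 3 intervals were above 0.

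Over all members, FOXA was about as frequent as CTCF, and it was not more frequent than in intronic elements. A match was found in 367 members, 9.30% (8.43 to 10.2), against 2.61% at 1 kb. The intronic share was 10.3%, and the interval of the difference, -2.25 to 0.25 percentage points, included 0. It lay below 0 in 4 of 12 alternative settings, with coding genes alone (-2.22 points), in 400-bp windows (-1.63), without chromosomes 2 and 6 (-1.62) and without regions that resembled another of their class (-1.82). In the 3405 members that resembled no other member, FOXA was less frequent than CTCF, at 6.14% against 9.07%. Promoters held FOXA in 2.22%, so the members as a whole were 7.08 points higher (6.16 to 8.07). Matches to both CTCF and FOXA were uncommon, since 5.60% of the CTCF members held FOXA against 9.67% of the members without CTCF (difference -4.07 points, -6.26 to -1.03). The largest group of similar members, described below, had FOXA in 105 of its 137 members and CTCF in 0. This group therefore added FOXA only to the share without CTCF. Outside it, 262 of 3809 members held FOXA, and all CTCF members were among these 3809. The difference and its interval were not recomputed without this group, so no avoidance between the motifs is read from them.

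The other liver factors were less frequent. HNF4A (CAAAGTCCA) was matched in 68 members, 1.72% against 0.291% at 1 kb, HNF1 (GTTAATNAT) in 63, 1.60% against 0.95%, and C/EBP (TTGCNCAA) in 154, 3.90% against 2.42%. HNF1 was 0.67 points lower than in intronic elements (interval of the difference, -1.24 to -0.08), but the interval included 0 in 7 of 12 alternative settings. The intervals for HNF4A (-0.29 to 0.79) and C/EBP (-1.11 to 0.55) included 0. TEAD (CATTCCA) was found in 5.12% and GATA proteins (AGATAAG) in 3.8% of members. The shares at 1 kb were 3.23% and 2.95%, and those in intronic elements were 5.87% and 4.02%.

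**Figure D1:**
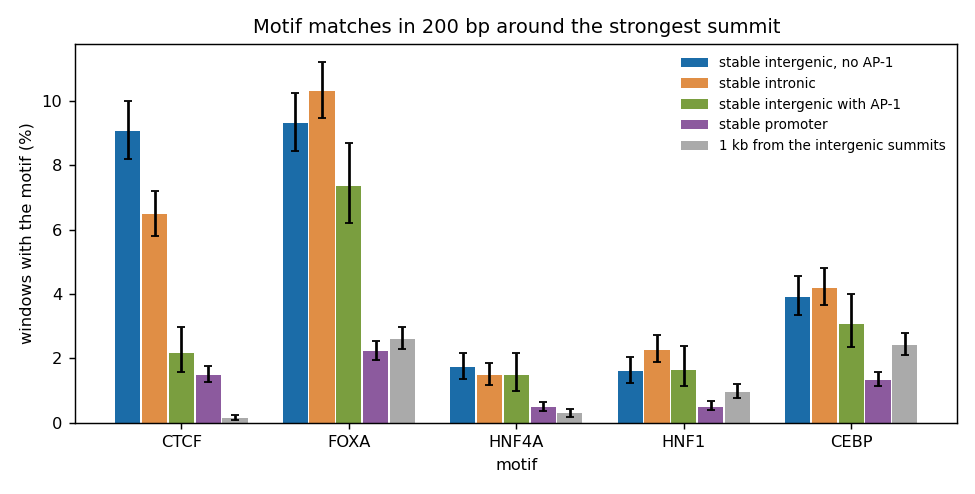
Share of 200-bp windows (percent, vertical axis) with an exact match to each of 5 motifs in 4 classes of stable elements and at 1 kb from the intergenic summits, with 95% Wilson intervals. CTCF reached 9.05% in the intergenic elements without AP-1 and 6.47% in intronic elements, while FOXA was at 9.30% and 10.3%.

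Promoter motifs were much rarer in members than in promoters. At 1 kb from the members, SP1 was matched in 0.253% and ETS in 0.101% of windows, below the member shares given next. SP1 (GGGGCGGGG) was matched in 0.938% of members against 14.5% of promoters, a difference of -13.6 points (-14.3 to -12.8), and ETS (CCGGAAGT) in 0.405% against 6.0%. NRF1 (GCGCATGCG), YY1 (AAGATGGCG), USF (GTCACGTG) and CRE (TGACGTCA) were also lower than in promoters, each with an interval below 0. Against intronic elements, SP1 (0.41 points, 0.06 to 0.80) and ETS (0.26 points, 0.04 to 0.52) were slightly higher. The other motifs searched on both strands were ATF4 (TGATGCAAT), NR5A2 (TCAAGGTCA), part of the REST site (TTCAGCACC), NFI and p53, and for none of these did the interval against intronic elements exclude 0. No motif of the 18 was matched in 65.0% of members, which says only that these letters were not in the window.

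CTCF matches lay closest to the summit. The median distance between match and summit was 21 bp for CTCF, 37 bp for FOXA, 43 bp for HNF4A, 50 bp for HNF1 and 53 bp for C/EBP, among matches within 100 bp. Even placement within 100 bp would give a median near 50 bp, so HNF1 and C/EBP showed no centring by this measure. Of the CTCF matches, 56.7% were within 25 bp. The median peak width in NTG was 411 bp with CTCF and 473 bp without it, 527 bp with FOXA and 615 bp with HNF1. The motif lay on the plus strand in 168 of 357.

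**Figure D2:**
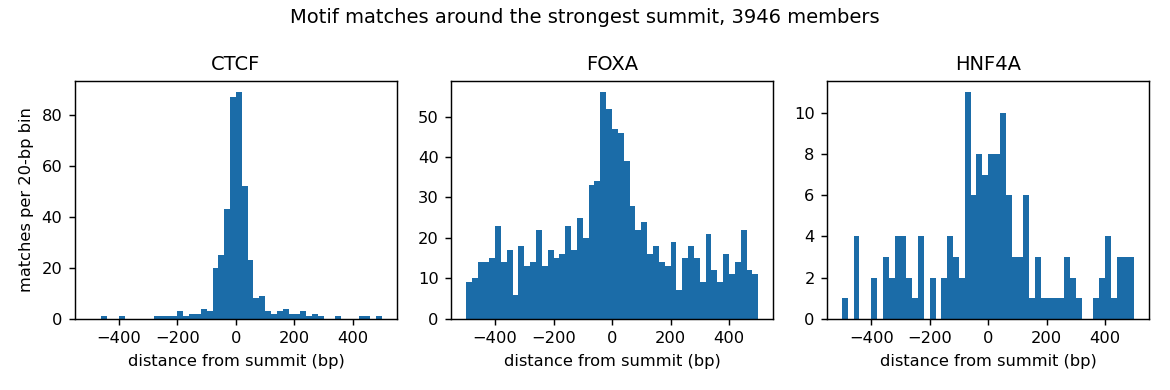
Number of motif matches per 20-bp bin (vertical axis) by distance from the strongest summit in bp (horizontal axis) over the 3946 members, for CTCF, FOXA and HNF4A. CTCF matches were almost confined to the 100 bp on either side of the summit, where 360 of 404 lay, whereas 381 of 988 FOXA matches did.

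Members had intermediate strength among stable elements. Fold enrichment is the height of a peak over its local background, and its median was 4.88 in NTG (quartiles 3.64 and 6.56), 4.54 in siINO80#1 and 3.85 in siINO80#2. Because fold enrichment shifts with a list as a whole, each region was ranked among the 29350 stable regions of the same list, from 0 for the lowest to 100 for the highest percentile. The median percentile was 48.4 in NTG, 46.6 in siINO80#1 and 45.5 in siINO80#2, close to the intronic medians of 47.9, 44.9 and 44.6. Promoters ranked higher, at 60.5 in NTG. The 3 strongest summits of a member, 1 per list, spanned a median of 57 bp.

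CTCF and FOXA were rarest in the weakest members. Members were divided into 4 classes of equal size by their mean percentile, which the motifs do not enter. CTCF rose from 5.27% (4.04 to 6.85) in the weakest class to 9.12%, 11.3% and 10.5% in the others, and FOXA from 4.67% (3.52 to 6.17) to 9.63%, 10.0% and 12.9%. The excess of CTCF over intronic elements was 3.84 points (1.48 to 6.27) in the strongest class and 2.51 points (0.86 to 4.27) in the weakest. The intervals of both middle classes included 0.

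**Figure D3:**
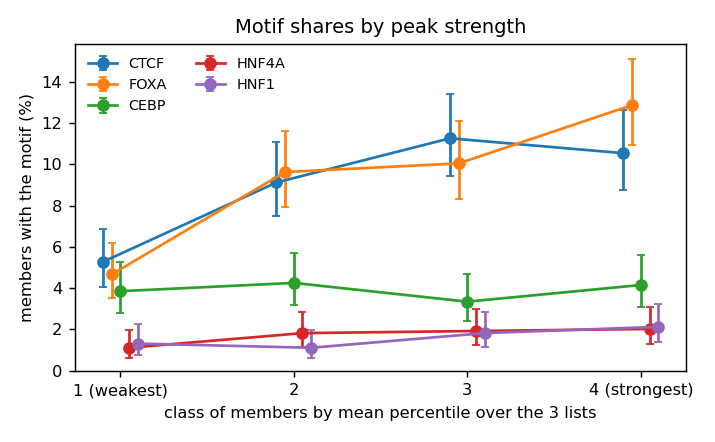
Share of members with each of 5 motifs (percent, vertical axis) by class of mean percentile of fold enrichment over the 3 lists, from weakest (1) to strongest (4), with 95% Wilson intervals. CTCF and FOXA were at 5.27% and 4.67% in the weakest class and at 10.5% and 12.9% in the strongest, while C/EBP, HNF4A and HNF1 varied within their intervals.

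The strongest member, chr5:29758873-29759952, had fold enrichments of 16.6, 19.5 and 16.7 in NTG, siINO80#1 and siINO80#2. It lay 36093 bp from the nearest start, that of a processed pseudogene, and 1433841 bp from the nearest coding start, that of CDH6, a cadherin. It held none of the 18 motifs, and the 100 bases around its summit are shown in lower case as no motif was matched.
Strongest member, chr5:29759212-29759311, plus strand: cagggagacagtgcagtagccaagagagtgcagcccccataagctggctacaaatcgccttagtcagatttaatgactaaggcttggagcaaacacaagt
The next was chr4:105049177-105050704, with an HNF1 match, at 17.4, 17.3 and 14.0. It was followed by chr6:142553344-142554288, with a FOXA match, at 16.2, 16.7 and 15.2. The members chr10:98561329-98561542 (15.4, 18.1 and 16.4) and chr9:32136597-32137112 (15.4, 17.9 and 15.8) held none of the motifs. All 5 were above the 99.7 percentile in every list.

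The similar flanks of the FOXA examples led to a comparison of the members' windows with each other, made after the sequences had been seen. Of 3946 windows, 541 (13.7%, 12.7 to 14.8) resembled at least 1 other member, with 75% identity or more over at least 50% of the window. The share was 10.2% in intronic elements and 3.24% in promoters. Linking similar windows gave 10 groups of 10 or more members. The largest held 137 members on 19 chromosomes, and 105 of these (76.6%) had the FOXA match, so that 28.6% of all FOXA members belonged to this 1 group. Its strongest window had 4045 similar places on chromosomes 1 to 22, with a median identity of 76.3%, of which 447 overlapped a region of any list. The third group held 37 members, 20 of them with CTCF.

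The largest group ranked higher in both siINO80 lists than in NTG. Its median percentile went from 46.5 for NTG to 68.8 for siINO80#1 and 60.5 for siINO80#2, and median fold enrichments were 4.77, 5.93 and 4.58. Of the 137, 27.0% (20.3 to 35.0) ranked lower in siINO80#1 than in NTG and 33.6% (26.2 to 41.8) ranked lower in siINO80#2, against 56.1% and 55.2% of the other members. Both siINO80 comparisons share the NTG list. For 22 of the 137, more than 1 place in the genome matched nearly identically, and reads of such copies cannot be assigned with certainty. Without them the medians were 50.3, 70.8 and 63.3. The group was chosen after its sequences were seen, and no repeat annotation was used here. The other groups moved either way. Of all 10, the median percentile was higher in both siINO80 lists than in NTG in 4, lower in both in 5 and mixed in 1. A group of 26 members, 10 with FOXA, went from 73.2 to 53.1 and 50.6, one of 12 members from 60.5 to 23.1 and 37.5, and one of 17 members from 29.9 to 47.7 and 57.6.

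One member of this group lay 56839 bp downstream of AREG, which encodes amphiregulin, a ligand of the EGF receptor. At chr4:75371195-75371777 its fold enrichment was 3.11 in NTG, 7.88 in siINO80#1 and 6.23 in siINO80#2, and its percentile went from 12.4 to 85.8 and 81.8. It was 1 of the 3 members with the largest gain in both lists. The others were chr13:87911498-87911941, from 8.52 to 91.1 and 90.5, and chr5:29780215-29781141, from 34.3 to 98.0 and 97.3. The latter lay near the strongest member of all.

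FOXA members as a whole followed the same direction, but among members the difference was smaller without the group. Among all members, 44.4% with FOXA ranked lower in siINO80#1 than in NTG against 56.1% without (difference -11.7 points, -17.0 to -6.35), and 46.0% against 55.3% in siINO80#2 (-9.22 points, -14.5 to -3.85). Without the 137 members, the differences were -4.04 points (-10.3 to 2.15) and -3.90 points (-10.1 to 2.30), and both intervals included 0. Intronic elements showed the same direction, with FOXA differences of -14.2 points (-18.8 to -9.59) in siINO80#1 and -9.12 points (-13.7 to -4.45) in siINO80#2. Groups of similar sequence were not removed there. The intervals here cover the sampling of regions and not of transfections.

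CTCF members ranked lower in siINO80#2. Their median percentile was 60.5 in NTG, 53.2 in siINO80#1 and 51.0 in siINO80#2. In siINO80#2, 62.5% ranked below NTG against 53.6% of the members without CTCF (8.86 points, 3.47 to 14.0). In siINO80#1 the shares were 57.7% and 54.8%, and the interval of the difference, -2.50 to 8.20 points, included 0. Set against siINO80#1 in place of NTG, the difference for siINO80#2 was 6.96 points (1.52 to 12.3). Combined over the 4 strength classes, the siINO80#2 difference from NTG was 8.33 points (3.04 to 13.6). These intervals cover the sampling of regions and not of transfections. In intronic elements the siINO80#2 difference from NTG was 5.59 points, with an interval that included 0 (-0.15 to 11.1). The siINO80#2 list was the shortest, and with each list cut to 53113 peaks the siINO80#2 difference from NTG was 7.96 points (2.41 to 13.3).

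**Figure D4:**
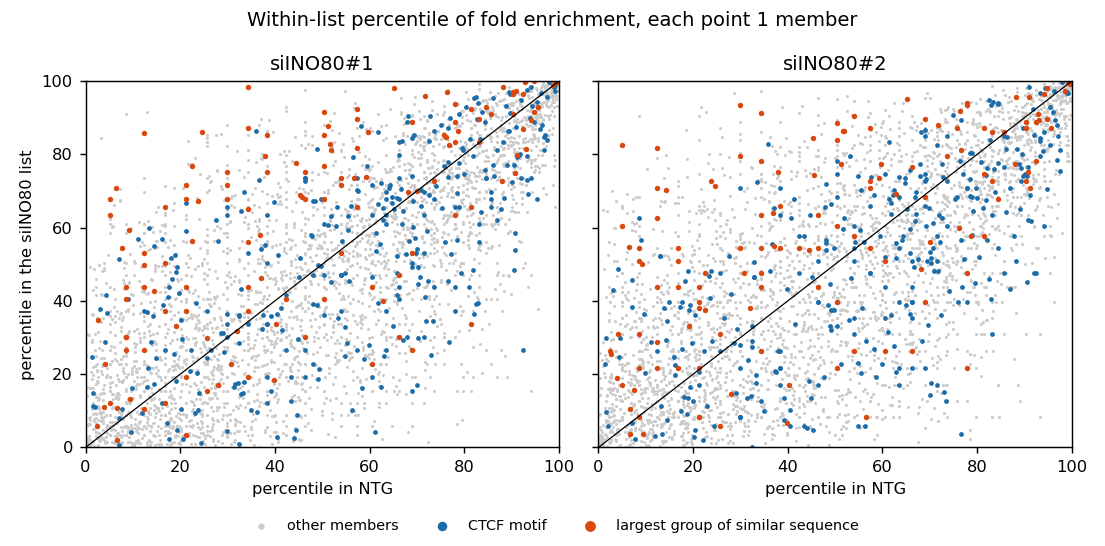
Percentile of fold enrichment among stable regions in NTG (horizontal axis) against siINO80#1 (left) and siINO80#2 (right), 1 point per member, with equal ranks on the diagonal. The 137 members of the largest group of similar sequence (red) lay mostly above the diagonal, with 27.0% and 33.6% below it, and the CTCF members (blue) lay more often below it.

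Over all members the median rank differed little between lists, while single members moved either way. The quartiles of the change of percentile from NTG were -14.7 and 10.3 in siINO80#1, and -16.0 and 11.7 in siINO80#2. The median change of percentile was -1.83 (order-statistic interval, -2.43 to -1.21) in siINO80#1 and -1.87 (-2.79 to -1.22) in siINO80#2, against -1.82 and -2.02 in intronic elements. Intergenic elements with AP-1 moved by 7.14 and 9.85 points. Percentiles are relative, so elements that rise in rank displace others. Ranked among the 22232 stable regions without AP-1 alone, the members' median change was -0.07 and 0.31, and both intervals included 0. All these intervals take members as units, which are not replicates, so they give no test between lists.

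Members that stood apart in 1 list were counted beside all stable regions. A region was counted when it was at least 20 percentile points above, or below, both other lists. NTG was higher in 395 members (10.0%, background 7.69%) and lower in 308 (7.81%, background 8.4%). siINO80#1 was higher in 171 (4.33%, background 3.66%) and lower in 201 (5.09%, background 4.0%), and siINO80#2 was higher in 213 (5.40%, background 5.17%) and lower in 280 (7.10%, background 5.58%). Intronic elements gave 10.1% and 7.83% for NTG. Since presence in these lists chose the members, nothing is read from these counts.

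The members that ranked lowest in both siINO80 lists relative to NTG are described in the same way. At chr6:16770816-16771450, 6239 bp from a lncRNA start and 9094 bp from a start of ATXN1, fold enrichment was 7.10 in NTG, 2.61 in siINO80#1 and 2.24 in siINO80#2. At chr13:34542986-34543736 it was 8.68, 3.25 and 2.68, and at chr18:52763671-52764240 it was 7.11, 3.09 and 2.39. The second held a FOXA match and was not in the largest group.

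Members lay a median of 23128 bp from the nearest transcript start, with quartiles of 11648 and 48138 bp and a maximum of 395209 bp. The nearest start was that of a lncRNA in 29.7%, of a protein-coding gene in 29.1% and of a processed pseudogene in 22%. The members farthest from any start were a pair at chr1:105179317-105179778 and chr1:105190906-105191214, at intermediate percentiles of 46.5 in NTG, and chr6:91650608-91651123, upstream of MAP3K7. Just inside the limit of 5 kb, 3 members at 5003, 5006 and 5008 bp had NTG fold enrichments of 4.05, 4.82 and 5.24. The 3 regions just outside it, at 4999, 4998 and 4991 bp, had 4.32, 3.93 and 2.88.

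The promoter of the nearest protein-coding gene was open in all 3 lists for 69.7% of members (68.2 to 71.1) and 76.8% of intronic elements, a difference of -7.13 points (-8.99 to -5.26). It was 69.1% for intergenic elements with AP-1. Among all 19229 coding genes, each counted once, the share was 52.1%. This differs in unit from the shares of elements, where a gene counts once per element. The 3946 members had 2254 nearest coding genes. The median distance to the nearest coding start was 60822 bp for members and 33704 bp for intronic elements, and the part of distance in the difference was not tested. TMEFF2 was nearest to 22 members, the highest number for 1 gene.

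Members near fixed lists of liver genes were counted beside lists for other cell types. Of 26 genes for proteins that the liver secretes, 11 (42.3%, 25.5 to 61.1) had a member within 100 kb of a start. Of 22 liver transcription factors, 8 did (36.4%, 19.7 to 57.0), against 3835 of all 19229 coding genes (19.9%). Neighbouring genes such as FGA, FGB and FGG share members, so these counts are not independent, and the lists were not tested. As lists of other cell types, 1 of 16 blood cell genes (6.25%) and 4 of 16 neural genes (25%) did. The order of the lists depended on the distance, since within 50 kb the neural share was still 25% and that of liver transcription factors 22.7%. Within 250 kb, 50.0% of neural genes and 59.1% of liver transcription factors had a member, against 36.3% of all coding genes. The promoter was open in all 3 lists for 18 of 26, 14 of 22, 2 of 16 and 5 of 16 genes in these lists. The hepatic markers AFP, APOA1, APOB and TTR were among the open ones, while the ALB promoter had a peak in NTG and siINO80#1 but not in siINO80#2.

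APOB, the protein scaffold of very low density lipoprotein, had 5 members nearby, the most in either liver list. Its chromosome 2 was also the densest in members, at 8.35 per Mb against 4.74 over all chromosomes. The member 11564 bp upstream, chr2:21278509-21279808, had fold enrichments of 8.68, 7.84 and 6.51 in NTG, siINO80#1 and siINO80#2. A member 25974 bp upstream with a FOXA match gave 8.0, 7.78 and 6.53. These were the strong members of the locus and kept percentiles between 84.1 and 89.0. The weaker members at 23145 bp, with a C/EBP match, and at 74160 bp gave 2.71, 3.95 and 3.70, and 3.32, 5.04 and 4.91. A member downstream with a CTCF match gave 3.38, 4.78 and 2.72.

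The fibrinogen genes FGA, FGB and FGG, which encode the chains of the clotting protein, shared 2 members. The one at chr4:155498128-155498932 was at 7.70, 7.31 and 3.16, so that its percentile was 83.3, 82.2 and 26.2. The other, at chr4:155518514-155520282, was at 4.10, 3.87 and 3.57. FOXA2 had 3 members, with NTG values of 3.54, 4.17 and 4.07, and HNF4A had 2, with 3.84 and 5.10. AMBP, which encodes the precursor of bikunin, had a member at 8.23, 4.36 and 5.87 and another at 4.28, 3.97 and 3.33. In NTG, most of these lay below the median member in rank, unlike the strong pair near APOB.

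Members were unevenly spread over chromosomes. Intergenic sequence that met the rule's limits came to 832 Mb, and held 4.74 members per Mb. Chromosomes 2 and 6 had 8.35 and 8.22 per Mb, followed by chromosomes 14 (7.27) and 20 (6.90), and the lowest were 19 (1.68) and 21 (1.72). Chromosomes 2 and 6 held 27.6% of members on 15.8% of this sequence. They also held many regions found in fewer lists, and the share of intergenic regions without AP-1 that appeared in all 3 lists was 10.3% on chromosome 2 and 13.2% on chromosome 6, against 15.3% overall. The part of copy number, mapping and peak calling in this distribution was not tested.

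**Figure D5:**
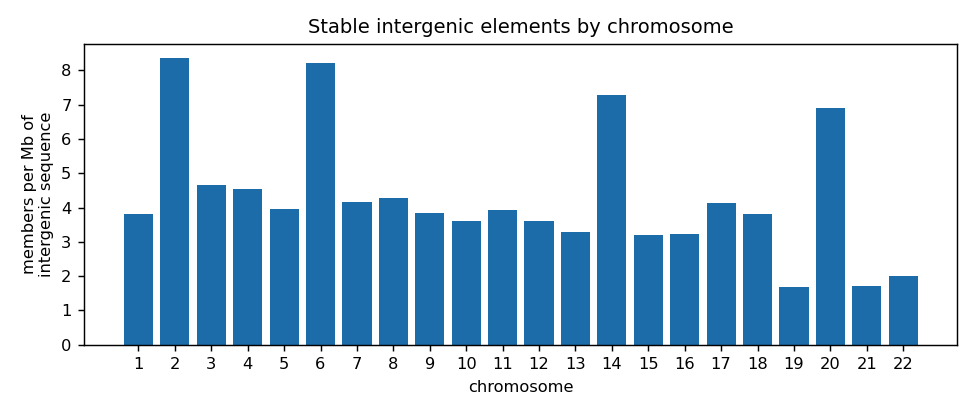
Members per Mb of sequence that met the distance and gene limits (vertical axis) for each of chromosomes 1 to 22. Chromosomes 2 and 6 stood highest at 8.35 and 8.22, with chromosomes 14 and 20 next and chromosomes 19 and 21 lowest.

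Distances between members were also counted. Another member lay within 100 kb of 54.3% of them and within 10 kb of 16.1%. These shares were not compared with random placement in the same sequence, so no clustering is read from them. Of 3071 windows of 100 kb with a member, 2407 held 1 and 162 held 3 or more. The fullest, chr6:47000001-47100000, held 7 members near ADGRF1, an adhesion G protein-coupled receptor, with a median percentile of 29.6. Of the windows with 5 members, some had BCAS1, EEA1, MED30 or PTMA as the nearest coding gene. Others had TMEFF2, whose start was 347361 and 1152629 bp away.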

How the data were processed

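ATAC-seq libraries of 9 HepG2 samples were summarised by the authors as 1 filtered peak list per siRNA. The deposited columns were a score (10 times the −log10 q, rounded down), the fold enrichment (a ratio), −log10 q, and the summit offset, an unscaled number of bp. Per the submitters' processing notes the tools were Trim Galore 0.4.1, Bowtie2, SAMtools, MACS2 and deepTools 2.2.4 with hg19, in no stated role, and the criterion of the filter was not given in the sources used here. Lists were merged at distance 0 and annotated with GENCODE 44 lifted to GRCh37. The strongest summit by percentile of fold enrichment gave the 200-bp motif window. Intervals are 95% Wilson, Newcombe and order-statistic intervals. Near-identical copies (95% identity over 90% of the window) and similar members (75% over 50%, E value at most 1e-5, dust filter) were found with blastn 2.17.0. Python 3.11.15, pandas 2.3.3, scipy 1.17.1 and pysam 0.24.0 were used, and scripts were tested on simulated data. Named regions were, by rule, the 5 strongest, the 3 farthest, widest, nearest to 5 kb on either side, and most changed in each direction in both siINO80 lists, and the strongest per motif. The members, the gene and motif lists and the comparisons were chosen with earlier results of these data known. The similar-sequence groups, the GC classes and the genes described singly within the lists were chosen after seeing these values. Groups came from the sample titles. Some sequences of the strongest members are not reported here.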

Additional observations from a re-analysis of the deposited data

Results flagged for a closer look

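The median −log10 q of the members moved in opposite directions in the siINO80 lists relative to NTG, by 0.73 in siINO80#1 and by -2.68 in siINO80#2, and so did the median peak width, by 5 bp and by -62 bp. Each siRNA had 1 list, so these differences were not tested. The siINO80#2 list held 53113 peaks against 69333 for siINO80#1, and the part of list size in these values was not tested.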

How the results depend on the processing

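Of 237 values recomputed under alternatives, 171 were labelled the same. Differences had to keep their direction and whether their interval included 0, and shares and medians had to stay within their interval. Counts, which have no interval, only had to stay within a fixed ratio of the main value. The CTCF excess over intronic elements stayed above 0 with its interval in 15 alternative settings (1.47 to 3.29 percentage points). The 4 strength classes were not among these settings, and in both middle classes the interval included 0. With a −log10 q of at least 5, there were 2232 members (12.2% of stable regions), with median percentiles of 51.2 in NTG and 47.7 in siINO80#1, CTCF in 10.7%, FOXA in 10.6%, and an HNF1 difference from intronic elements of -0.75 points whose interval included 0. The HNF1 interval also included 0 with lists cut to 53113 peaks (-0.59), at 10 kb from any start (-0.64), in 400-bp windows (-0.63), at the NTG summit (-0.56), without the AP-1 criterion (-0.36) and without chromosomes 2 and 6 (-0.68). The C/EBP difference changed sign at 10 kb (0.21), in 400-bp windows (0.070) and without chromosomes 2 and 6 (0.060), each interval including 0. At 10 kb the members were 10.8% of stable regions, with a 250-bp AP-1 window 12.6%, and without chromosomes 2 and 6 12.5%, where the siINO80#1 median was 47.9. With coding genes and starts alone there were 7388 members (25.2%), CTCF was in 7.72%, the FOXA and HNF4A differences were -2.22 and 0.70 points, and the CTCF difference in the share below NTG in siINO80#1 was 4.68, all 3 with intervals excluding 0. Without the AP-1 criterion the members were 19.2%, the medians were 45.5, 47.8 and 48.6, the changes of percentile turned to 0.28 and 1.01, CTCF was in 6.98%, and the siINO80#1 CTCF difference was 9.50. Ranked by −log10 q, the medians were 45.02, 42.5 and 42.3. In 100-bp windows CTCF was in 7.22% and FOXA in 5.65%, and in 400-bp windows FOXA was in 13.2%. The FOXA interval against intronic elements lay below 0 in 400-bp windows (-1.63), without chromosomes 2 and 6 (-1.62) and without regions that resembled another of their class (-1.82). At 10 percentile points the counts of members apart were 824 and 613 (NTG higher and lower), 451 and 541 (siINO80#1) and 537 and 645 (siINO80#2), and at 30 points 166 and 161, 50 and 66, and 64 and 109. At 50 kb, 2248 coding genes and 5 liver transcription factors had a member nearby, and at 250 kb 6975 and 13, with 3 blood cell and 8 neural genes. Ranked among regions without AP-1, the NTG median was 45.6 and the changes were -0.070 and 0.31. Without the largest group of similar members, the FOXA differences in the share below NTG were -4.04 and -3.90, and both intervals included 0. The settings without chromosomes 2 and 6, without similar regions or the largest group, within GC or strength classes and ranked without AP-1, and all settings of the shares below NTG, were chosen after seeing the data. The cause of these changes was not tested. No paired analysis was possible because the replicates of an siRNA were joined in a single list, and for the same reason no replicate could be left out. Read depth and the spread between transfections are not in these files and limit every comparison between lists.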
